A study of Homo sapiens with 2 samples.

Results

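Microtubule-associated proteins and stathmins are the proteins that hold microtubules together or take them apart, and 10 of their genes were measured here in A2780 ovarian carcinoma cells that had become resistant to carboplatin or to carboplatin with docetaxel. The genes were MAPT, MAP1A, MAP1B, MAP2, MAP4, MAP7, STMN1, STMN2, STMN3 and DCLK1. Their probes were found by gene name, with every probe of each gene and both dye channels in both lines, which gave 23 of 41000 probes and 10 of 30238 gene names. All 10 names are current symbols, and 22 of the 23 probe accessions matched a RefSeq transcript of the same gene.

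A2780 is an established human ovarian carcinoma line. A2780CBN was selected with increasing carboplatin up to 22.2 µM. A2780CBNDXL was selected with carboplatin and docetaxel together. The labels give 8.02 µM for this line, which the study's text reports as its carboplatin IC50 in the combination and not as its final dose. The docetaxel concentration in the combination was far lower, in the nanomolar range. The comparator of each line was A2780CC, A2780 cells kept in culture beside it without drug, and the study describes such a control for each line, although both carry the same name. All cells share the A2780 origin, each resistant line is 1 selected population, and the resistant lines were kept in drug. For each line the study pooled 3 RNA isolations, so that a line is 1 sample. This sample was hybridized with its control to 4 two-colour Agilent arrays, with forward and reverse dye labelling on each of 2 slides. The arrays therefore repeat 1 sample, the SD between them holds the error of labelling and hybridization but not that between cultures, and no test over cultures could be made. The docetaxel-resistant line A2780DXL was not analysed here.

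Microtubules are polymers of alpha- and beta-tubulin that grow and shrink at their ends. MAPT (tau), MAP2 and MAP4 are relatives that bind along the microtubule wall through repeats in their C-terminal part and stabilize the polymer, and MAP1A and MAP1B do so through other domains. MAP7 binds microtubules and recruits the motor kinesin-1, and DCLK1 joins a tubulin-binding doublecortin domain to a protein kinase. Stathmins act the other way, since they hold free tubulin dimers and favour shrinkage. Docetaxel binds beta-tubulin inside the microtubule and locks the polymer, whereas carboplatin forms adducts with DNA. MAPT, MAP1A, MAP1B, MAP2, STMN2, STMN3 and DCLK1 are best known from neurons, while MAP4, MAP7 and STMN1 are widely expressed.

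The values rest on probes of 60 bases, each at the position that the array design gives on NCBI36. The following sequences are the probes or probe starts of the genes on which the comparisons turn, 5′ to 3′. The MAP2 and MAP4 probes are shown whole because they extend over 279 and 2130 bases of the chromosome, which is longer than the probe, and share a run of 13 bases, the longest run shared by probes of different genes in the set, which stands in capitals. The MAP2 probe is the brightest probe of its gene, and the MAP4 probe is the dimmest of 3. For the other genes the first 30 bases are given.
MAP2, chr2:210302920-210303198, plus strand: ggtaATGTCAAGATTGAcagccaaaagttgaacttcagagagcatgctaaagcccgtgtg
MAP4, chr3:47871824-47873953, minus strand: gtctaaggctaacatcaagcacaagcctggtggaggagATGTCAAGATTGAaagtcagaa
MAPT, chr17:41461336-41461395, plus strand: agtttgccatgttgagcaggactatttctg
MAP1B, chr5:71540512-71540571, plus strand: cctgtttccatttgaaaggaactgtaagct
DCLK1, chr13:35243508-35243567, minus strand: aaatgtttttaccgtagccctcatctaact
STMN3, chr20:61741530-61741589, minus strand: gcacccatctcatccacgtagtaaagtgaa

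Each value below is a log2 ratio of resistant line over control, computed from the dye-normalized signals of an array and given for arrays 1 to 4 in that order. Arrays 1 and 2 are on slide 1 and arrays 3 and 4 on slide 2, and arrays 1 and 3 carry forward and arrays 2 and 4 reverse labelling. A signal is the processed intensity of a probe in 1 channel, in the scanner software's units, and is compared only with the same probe. The brightest probe of a gene, by mean signal over all arrays, stood for it. A gene passed the 2-fold rule when this probe had a mean log2 ratio of 1 or more in either direction and 1 sign on all 4 arrays, and when the line or the control was well above background on every array. Genes without a measured and bright enough probe on all 4 arrays were not tested by this rule.

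Of the 10 genes, 9 could be tested in A2780CBN and 4 passed the rule, STMN3 as higher and MAP1B, MAP2 and DCLK1 as lower than the control. Among all 17951 genes tested in that line 12.6% passed, 8.0% as higher and 4.55% as lower. In A2780CBNDXL 8 genes could be tested and 3 passed, MAPT, MAP1B and MAP2, all as lower, against a background of 16.9% of 17116 genes, 7.7% higher and 9.2% lower. MAP1B and MAP2 were lower in both lines. Of the 16131 genes tested in both lines, 4.0% passed in the same direction in both, with higher and lower counted together. The members were chosen with earlier results of these data known, so the shares serve as background only. In these bulk samples fewer expressing cells and less RNA per cell cannot be told apart. The median log2 ratio of the tested genes was -0.02 in A2780CBN and 0.18 in A2780CBNDXL, beside -0.06 and 0.04 over all tested genes. MAP7 was not well above background in either channel on any array, and STMN3 could not be tested in A2780CBNDXL because the software marked its brightest probe as an outlier spot on array 1.

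**Figure D1:**
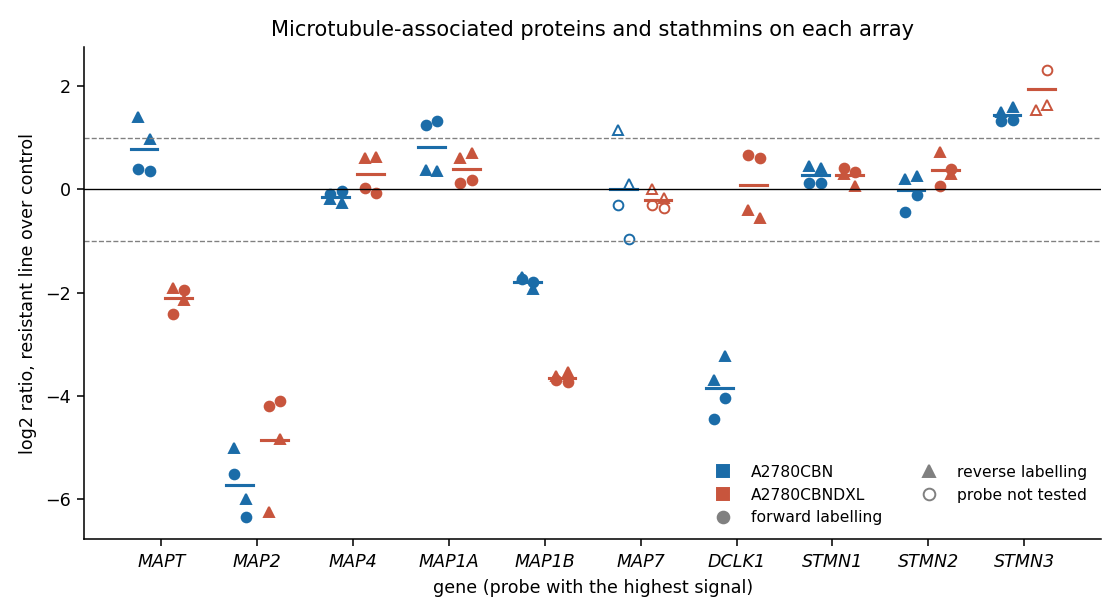
Log2 ratio of resistant line over control (y axis) of the brightest probe of each of the 10 genes (x axis) on every array of A2780CBN (blue) and A2780CBNDXL (red). Circles are forward and triangles reverse labelled arrays, horizontal bars are means, open symbols are probes that could not be tested, and dashed lines mark a 2-fold change. MAP1B and MAP2 lie below the lower dashed line on all arrays of both lines, DCLK1 lies below it only on the arrays of A2780CBN, and MAPT lies below it only on those of A2780CBNDXL.

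Among the MAPs that bind through C-terminal repeats, MAP2 showed the largest change. In A2780CBN its log2 ratios were -5.52, -5.01, -6.35 and -6.00, a mean of -5.72 ± 0.58 (SD of 4 arrays). The control signals lay between 391 and 511, and those of the resistant line between 4.79 and 14.3, and no array had the line well above background. In A2780CBNDXL the log2 ratios were -4.21, -6.26, -4.11 and -4.83, a mean of -4.85 ± 0.99, with control signals of 344 to 444 and line signals of 5.80 to 23.6. The line signals did not overlap the control signals in either line. Since the resistant channel gave only an upper bound, MAP2 was at least 19.5-fold lower in A2780CBN and at least 16.4-fold lower in A2780CBNDXL, computed against the lowest signal well above background after scaling between arrays. Its other probe, on chr2:210303660-210303719, was dim, with the control above background on 2 of 4 arrays in each line. It had mean log2 ratios of -2.35 ± 0.45 and -1.86 ± 0.63, negative on all 8 arrays. The line was not above background on any array, and the probe could not be tested. By the same bound it was at least 1.29-fold lower in A2780CBN and at least 1.00-fold in A2780CBNDXL, which is no measurable decrease there. With normexp background correction (offset 50) and loess normalization together, the MAP2 means were -1.34 and -1.29 and still passed.

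MAPT was the tested member with a constant sign on all arrays of each line and opposite signs between the lines. In A2780CBNDXL its log2 ratios were -2.42, -1.91, -1.96 and -2.15, a mean of -2.11 ± 0.23, so the gene was 4.31-fold lower than in the control. The signals were 21.1, 39.5, 28.7 and 29.5 in the line and 112, 148, 112 and 131 in the control, and the groups did not overlap. In A2780CBN the log2 ratios were 0.39, 1.41, 0.35 and 0.98, a mean of 0.78 ± 0.51, which did not pass the rule. There the line signals were 41.7, 45.2, 49.2 and 52.1 and the control signals 31.7, 17.1, 38.6 and 26.5, so all MAPT signals of this line and its control were low. A sign that was constant within each line and opposite between them was found in 14.2% of the genes tested in both.

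The MAPT ratios rested in part on the controls. After scaling of the channels between arrays, the mean MAPT signal was 27.9 in the control of A2780CBN, 47.9 in A2780CBN, 123 in the control of A2780CBNDXL and 28.5 in A2780CBNDXL. The control of A2780CBNDXL thus stood apart from the other RNAs, and it exceeded the control of A2780CBN by 2.14 ± 0.62 on the log2 scale (SD of 4 array pairs, range 1.45 to 2.95). The resistant lines differed by -0.75 ± 0.26, with A2780CBNDXL lower. Set against the control of A2780CBN, A2780CBNDXL had a MAPT log2 ratio of 0.03 ± 0.72 and no longer passed the rule, and A2780CBN set against the control of A2780CBNDXL had -1.36 ± 0.24 and passed as lower. With the controls exchanged in this way, 13.5% of 17125 genes passed in A2780CBN, 7.46% as higher and 6.07% as lower, and 17.5% of 17044 in A2780CBNDXL, 8.7% as higher and 8.84% as lower. Why the controls differ was not tested. With normexp and loess, MAPT in A2780CBNDXL had a log2 ratio of -0.44 and did not pass.

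A further MAPT probe, on chr17:41458383-41458442, was printed in 10 spots per array. It had the same signs as the brighter probe, with a mean of 0.56 ± 0.22 in A2780CBN and -0.66 ± 0.46 in A2780CBNDXL. It was above background on 2 of 4 arrays in the brighter channel of each line and could not be tested. In A2780CBN the spots left after removal of outliers were positive in 7 of 7, 9 of 9, 10 of 10 and 8 of 10 cases on arrays 1 to 4. In A2780CBNDXL they were negative in 9 of 9, 5 of 9, 10 of 10 and 5 of 8 cases.

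MAP4, the ubiquitous member of this family, showed little difference from the control. The log2 ratios of its brightest probe were -0.09, -0.19, -0.03 and -0.26 in A2780CBN, a mean of -0.15 ± 0.10. In A2780CBNDXL they were 0.03, 0.61, -0.06 and 0.62, a mean of 0.30 ± 0.37, and the reverse labelled arrays were the high ones. A second probe, on chr3:47868684-47868743, gave -0.07 ± 0.28 and 0.43 ± 0.36. The third, whose sequence is shown above with the run shared with MAP2, gave 1.07, -1.11, 1.02 and -0.99 in A2780CBN, so that its sign followed the labelling direction and its mean of 0.00 ± 1.21 covers ratios near 2-fold in both directions. In A2780CBNDXL the same probe gave 0.75 ± 0.51. None of the 3 probes passed the rule in either line.

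The paralogs MAP1A and MAP1B, which both bind microtubules in axons and dendrites and make the same kind of light chain, differed from each other. MAP1B had log2 ratios of -1.73, -1.71, -1.79 and -1.93 in A2780CBN, a mean of -1.79 ± 0.10 or 3.45-fold lower. In A2780CBNDXL they were -3.69, -3.63, -3.74 and -3.53, a mean of -3.65 ± 0.09 or 12.5-fold lower. The signals of the control lay between 2514 and 3456 on all 8 arrays, A2780CBN had 687 to 1024 and A2780CBNDXL 234 to 280, with no overlap among the 3. The second MAP1B probe, on chr5:71538357-71538416, gave -1.96 ± 0.17 and -3.61 ± 0.39, close to the first. MAP1B had the smallest SD between arrays of all tested members in both lines. The controls of the lines differed by 0.00 ± 0.16 in its scaled signal and exchanging them gave log2 ratios of -1.79 ± 0.17 and -3.65 ± 0.09.

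MAP1A did not pass the rule in either line. Its only probe, on chr15:41610444-41610503, had log2 ratios of 1.25, 0.38, 1.33 and 0.36 in A2780CBN, a mean of 0.83 ± 0.53, with the forward labelled arrays high. The line signals of 5112, 3622, 4429 and 3306 lay above all control signals, which were 2150, 2785, 1762 and 2580. In A2780CBNDXL the log2 ratios were 0.12, 0.60, 0.19 and 0.70, a mean of 0.40 ± 0.29, with the line at 1187 to 1842 and the control at 898 to 1512, which overlap. The scaled MAP1A signal differed between the controls by -1.12 ± 0.68 and between the lines by -1.54 ± 0.28, in both cases with A2780CBNDXL or its control lower. Against the control of the other line, A2780CBN had a log2 ratio of 1.95 ± 0.23 and passed as higher, and A2780CBNDXL had -0.71 ± 0.44 and did not pass.

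DCLK1, the doublecortin-like kinase that binds microtubules in growing neurons and marks tuft cells of the gut, was lower in A2780CBN only. Its log2 ratios there were -4.46, -3.70, -4.04 and -3.23, a mean of -3.86 ± 0.52 or 14.5-fold lower. The line signals were 25.6, 39.0, 32.2 and 46.1, above background on 3 of 4 arrays, and the control signals 564, 507, 527 and 434. In A2780CBNDXL the log2 ratios were 0.66, -0.40, 0.60 and -0.56, a mean of 0.08 ± 0.64, so that the sign followed the labelling direction. There the line signals of 724 to 1038 overlapped the control signals of 538 to 1193. Exchanging the controls gave -4.50 ± 0.17 for A2780CBN and 0.72 ± 0.17 for A2780CBNDXL. With normexp and loess, DCLK1 in A2780CBN still passed the rule, at -1.19.

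The other 3 DCLK1 probes could not be tested. The probe on chr13:35241269-35241328 gave -0.91 ± 0.69 in A2780CBN and 0.97 ± 0.44 in A2780CBNDXL, where the line was above background on 2 arrays and the control on none. The probes on chr13:35260356-35260415 and chr13:35242278-35242337 were not above background in any channel. They gave means of 0.01 and -0.11 in A2780CBN and of 0.28 and 0.85 in A2780CBNDXL. The low DCLK1 level in A2780CBN therefore rests on 1 probe. The mean over all 4 probes was -1.22 in A2780CBN and passed the rule, but it comes largely from this same probe and adds no separate evidence.

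MAP7 gave no measurement. Its probes, on chr6:136705537-136705562 and chr6:136706225-136706284, had signals of 5.37 to 17.9 in the resistant lines and of 5.20 to 17.9 in the controls, none of them well above background.

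Among the stathmins, STMN3 was higher in both lines and STMN1 was not changed by the rule. STMN3, also known as SCLIP, is a stathmin of the nervous system. In A2780CBN its log2 ratios were 1.33, 1.5, 1.34 and 1.59, a mean of 1.44 ± 0.13 or 2.71-fold higher, with line signals of 8375 to 9766 and control signals of 2952 to 3865. The other STMN3 probes, on chr20:61742388-61742447 and chr20:61741876-61741935, gave 1.17 ± 0.27 and 1.16 ± 0.24, and all 3 passed. Against the control of A2780CBNDXL the brightest probe had a log2 ratio of 1.03 ± 0.11 on 3 arrays and could not be tested, since its spot on array 1 of that line was an outlier, and the others had 1.24 ± 0.21 and 1.03 ± 0.27.

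In A2780CBNDXL the brightest STMN3 probe had log2 ratios of 1.53, 2.32 and 1.64 on arrays 2 to 4, with array 1 dropped for an outlier spot, and a mean of 1.95 ± 0.43 (SD of 3 arrays). The other probes were measured on all 4 arrays. They gave 2.02, 2.62, 1.84 and 2.56, a mean of 2.26 ± 0.39, and 1.91, 2.57, 1.91 and 2.59, a mean of 2.25 ± 0.39, and both passed. When an array with an outlier spot was passed over and 3 arrays were taken as enough, STMN3 passed too and 4 members did in this line, beside 16.5% of the 17902 genes then tested, 7.52% as higher and 8.99% as lower. The control signals of the probe on chr20:61742388-61742447 were 239 to 413 in A2780CBNDXL and 270 to 341 in A2780CBN, while the line signals were 967 to 1812 and 619 to 760, so that lines and controls did not overlap.

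STMN1, the founding stathmin (oncoprotein 18) and an abundant protein of dividing cells, had log2 ratios of 0.12, 0.45, 0.13 and 0.42 in A2780CBN and of 0.42, 0.29, 0.34 and 0.07 in A2780CBNDXL. Both means were 0.28, with SDs of 0.18 and 0.15. All 8 ratios were positive, and all were below 2-fold. The signals lay between 57943 and 114745 over both channels, and no spot on the arrays was saturated. A second STMN1 probe was made for another transcript, on chr1:26084022-26084081. It was dim, with means of 0.20 ± 0.49 and -0.45 ± 0.20, and could not be tested.

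STMN2 (SCG10), the neuronal stathmin of growth cones, had a low signal with its brighter probe, whose accession did not match a RefSeq transcript. Its brighter probe had log2 ratios of -0.44, 0.20, -0.11 and 0.26 in A2780CBN, a mean of -0.02 ± 0.32, and of 0.07, 0.73, 0.40 and 0.29 in A2780CBNDXL, a mean of 0.37 ± 0.28. The line signals were 34.8 to 55.6 in A2780CBN and 68.9 to 92.9 in A2780CBNDXL. The other STMN2 probe, which shares a run of 22 bases with the first, was not above background in A2780CBN or in either control. In A2780CBNDXL its line signals were 26.0, 27.4, 29.1 and 31.4 beside control signals of 10.0, 4.89, 5.28 and 5.43, and its log2 ratios were 1.37, 2.49, 2.46 and 2.53, a mean of 2.21 ± 0.56. The line was above background on only 1 of these arrays, so the probe could not be tested and no fold is given.

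**Figure D2:**
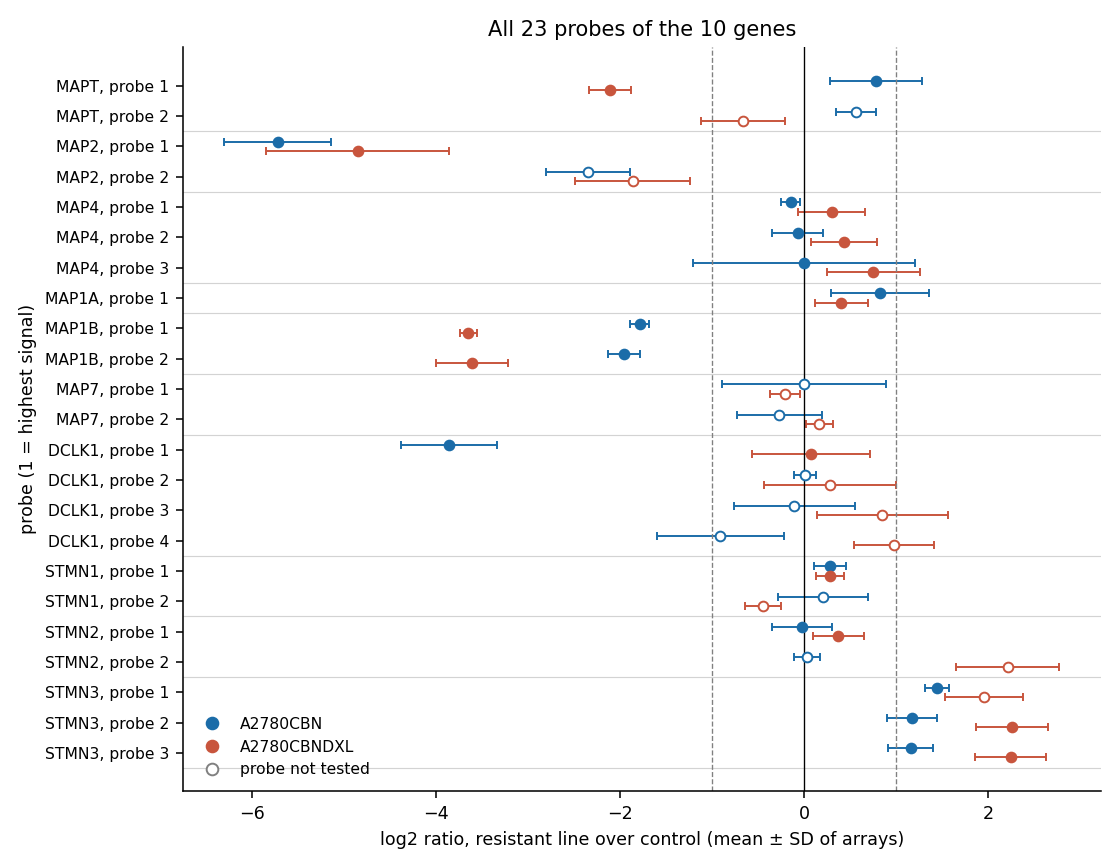
Mean log2 ratio of resistant line over control with its SD between arrays (x axis) for each of the 23 probes (y axis, grouped by gene, probe 1 being the brightest) in A2780CBN (blue) and A2780CBNDXL (red). Open symbols are probes that could not be tested and dashed lines mark a 2-fold change. Probes of MAP1B and of STMN3 lie close together within a line, whereas the dim probe of MAP2 in both lines and those of DCLK1 in A2780CBN lie nearer to 0 than the bright ones.

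Between the lines, the ratio of A2780CBNDXL minus that of A2780CBN was taken on arrays with the same number, with the same limits of 2-fold and of 1 sign on all 4 pairs. MAPT was lower in A2780CBNDXL by a log2 difference of -2.89 ± 0.44 (SD of 4 pairs), MAP1B was lower by -1.86 ± 0.17, and DCLK1 was higher by 3.93 ± 1.14. Over all 17627 genes with a test, 18.8% passed, 7.08% as higher and 11.7% as lower in A2780CBNDXL. The MAP2 difference of 0.87 ± 1.49 compares signals at the background of both lines and carries no order. STMN3 differed by 0.51 ± 0.54 on 3 pairs with its brightest probe, and by 1.09 ± 0.66 and 1.08 ± 0.63 with the others, which both passed. STMN1 differed by 0.00 ± 0.30, STMN2 by 0.39 ± 0.24, MAP4 by 0.44 ± 0.46 and MAP1A by -0.43 ± 0.82, none of which passed.

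The resistant channels were also set against each other after scaling, which leaves the controls out. DCLK1 was then higher in A2780CBNDXL by 4.58 ± 0.65, at scaled signals of 841 against 35.3. MAP1B was lower by -1.86 ± 0.15, at 241 against 873, and MAP1A was lower by -1.54 ± 0.28, at 1465 against 4269. These 3 genes passed, and so did 16.5% of the 17083 genes tested in this way, 6.63% as higher and 9.82% as lower. MAPT did not, with -0.75 ± 0.26 at 28.5 against 47.9. The order of the MAP1B levels was the controls at 3014 and 3020, which did not differ beyond their spread, then A2780CBN, then A2780CBNDXL. For DCLK1 the order was A2780CBNDXL at 841, its control at 798, the control of A2780CBN at 511 and A2780CBN at 35.3, of which the first 2 did not differ beyond their spread.

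**Figure D3:**
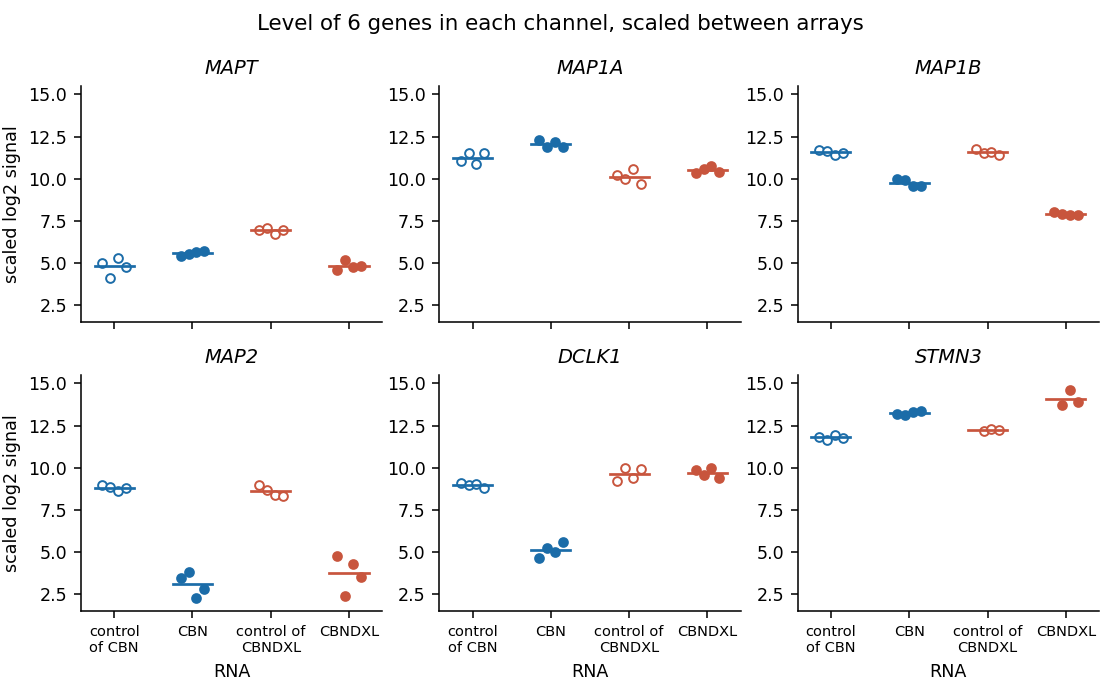
Signal of the brightest probe on the log2 scale after scaling of the channels between arrays (y axis) for 6 genes in the control of A2780CBN, A2780CBN, the control of A2780CBNDXL and A2780CBNDXL (x axis). Open symbols are controls, filled symbols resistant lines, 1 point per array, and bars are means. The controls lie at the same level for MAP1B and close together for MAP2. They lie apart for MAPT, where the control of A2780CBNDXL is the highest of the 4 RNAs, and for MAP1A, where it is the lowest. For DCLK1 and STMN3 the controls differ less.

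The upstream 250 bases of MAP1B and STMN3 are shown as the regulatory context of the 2 genes with agreeing bright probes that moved in the same direction in both lines, MAP1B down and STMN3 up. They are RefSeq sequences on GRCh38.p14, in the direction of the transcript, with the 6 letters GGGCGG or their complement CCGCCC, the core of the GC box, in capitals. For MAP1B the table lists another start as well, and the arrays do not show which start was used.
MAP1B, chr5:72107225-72107474, plus strand: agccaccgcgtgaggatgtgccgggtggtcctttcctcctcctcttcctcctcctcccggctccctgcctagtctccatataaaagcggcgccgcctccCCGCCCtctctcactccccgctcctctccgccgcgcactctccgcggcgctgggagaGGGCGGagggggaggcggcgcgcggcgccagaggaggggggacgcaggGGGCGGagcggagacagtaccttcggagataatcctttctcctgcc
STMN3, chr20:63652767-63653016, minus strand: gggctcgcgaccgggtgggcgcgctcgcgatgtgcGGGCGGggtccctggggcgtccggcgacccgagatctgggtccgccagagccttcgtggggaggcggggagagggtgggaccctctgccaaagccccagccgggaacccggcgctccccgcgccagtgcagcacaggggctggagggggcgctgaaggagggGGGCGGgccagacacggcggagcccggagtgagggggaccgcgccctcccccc

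The MAP1B window held 25 CpG dinucleotides and 3 matches to GGGCGG, and the STMN3 window 28 CpG and 2 matches. The window before the other MAP1B start, on chr5:72179537-72179786, held 11 CpG and 2 matches. The motif was searched on both strands and no other motif was searched. Of 35116 RefSeq upstream windows of the same length, 42.6% held GGGCGG, and the median number of CpG was 11. The 3 listed starts of MAP2, the other gene that was lower in both lines, held 4 to 8 CpG and no match. Genes that passed in neither line had windows as rich as those of MAP1B and STMN3. A start of STMN1 held 28 CpG and 4 matches and a start of MAP4 33 and 3, while another MAP4 start held 1 CpG and no match. The counts therefore do not set MAP1B and STMN3 apart. These are descriptions of letters in a window, and the arrays did not measure binding or methylation.

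The genes that work with the members were described through 5 further lists of 66 genes in all. In A2780CBN 57 of them could be tested, of which 8 passed as higher and 3 as lower, 19.3% against 12.6% over all genes. In A2780CBNDXL 54 could be tested, of which 6 passed as higher and 7 as lower, 24.1% against 16.9%. These shares are descriptions only. By direction, 8.0% of all tested genes passed as higher and 4.55% as lower in A2780CBN, and 7.7% and 9.2% in A2780CBNDXL. With normexp (offset 50) and loess, 2 related genes passed in A2780CBN in place of 11, and 9 in A2780CBNDXL in place of 13. Most of the A2780CBN genes named below therefore did not pass under that setting. With the limit at 1.5-fold, 18 and 23 genes of the lists passed, beside 27.1% of all tested genes in A2780CBN, 14.6% higher and 12.5% lower, and 33.3% in A2780CBNDXL, 16.4% higher and 16.9% lower.

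Among 17 structural MAPs and relatives of the members, 13 could be tested in each line. MAP6, a protein of cold-stable microtubules, was the only one that passed in A2780CBN, with a log2 ratio of 2.90 ± 0.83, and it was not above background in A2780CBNDXL or its control. In A2780CBNDXL the MAP6 relative MAP6D1 was lower, by -2.87 ± 0.14, although its other probe did not pass. MAP7D2, a relative of MAP7, was lower by -3.05 ± 0.29, with both other probes passing as well. DCLK2, the paralog of DCLK1, was higher at 1.85 ± 0.30, and MAP1LC3A, a relative of the MAP1 light chains with a role in autophagy, was higher at 1.41 ± 0.42. The median log2 ratio of the list was -0.07 in A2780CBN and 0.06 in A2780CBNDXL.

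Among 12 proteins that bind growing microtubule plus ends, 4 of 11 passed in A2780CBN, all as higher, beside 8.0% of all tested genes. They were CLIP2 (1.66 ± 0.68), CLIP3 (1.94 ± 0.28, with its other probe), CLIP4 (1.71 ± 0.57) and the end-binding protein MAPRE3 (1.61 ± 1.31), whose ratios of 2.93, 0.31, 2.52 and 0.67 depended on the labelling direction. In A2780CBNDXL 3 of 10 passed. MAPRE2 was higher at 2.40 ± 0.20 with both other probes, and CLIP1 was lower at -1.04 ± 0.46, which its other probe did not show. CLIP4 was lower with a mean of -4.20 ± 0.53, and since its line signal was not above background it was at least 10.0-fold lower. CLIP4 thus passed in opposite directions in the lines, which 1.83% of the genes tested in both did.

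Of 13 enzymes that sever microtubules or modify tubulin, 4 of 12 passed in A2780CBN and 4 of 13 in A2780CBNDXL. FIGN (fidgetin), an ATPase that severs microtubules, was lower in both. Its log2 ratio was -3.91 ± 0.23 in A2780CBN and -5.44 ± 0.64 in A2780CBNDXL, where it was at least 31.5-fold lower, and its other probes passed too. VASH2, a part of the enzyme that removes the last tyrosine of alpha-tubulin, was higher in A2780CBN (1.11 ± 0.36) and lower in A2780CBNDXL (-2.07 ± 0.21). The tubulin ligases TTLL7 (1.92 ± 0.11, with both other probes) and TTLL4 (-1.19 ± 0.29) passed in A2780CBN, and the tubulin deacetylases HDAC6 (1.44 ± 0.20, but not its other probe) and SIRT2 (1.33 ± 0.42) passed as higher in A2780CBNDXL.

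Of 12 genes of kinases and a phosphatase that act on MAPs and stathmins, 2 of 9 passed in A2780CBN and 0 of 8 in A2780CBNDXL. MARK1, a kinase that releases MAPT and MAP2 from microtubules, was at least 4.52-fold higher in A2780CBN, with the control not above background on any array, and was not above background in A2780CBNDXL or its control. CDK5R1, the activator of the MAPT kinase CDK5, was lower by -1.38 ± 0.23. Of 12 MAPs of the mitotic spindle, 0 of 12 passed in A2780CBN, where their log2 ratios lay between -0.47 and 0.49. In A2780CBNDXL HMMR (-1.16 ± 0.44) and NUMA1 (1.23 ± 0.48) passed among 10 tested, and the median was -0.23.

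**Figure D4:**
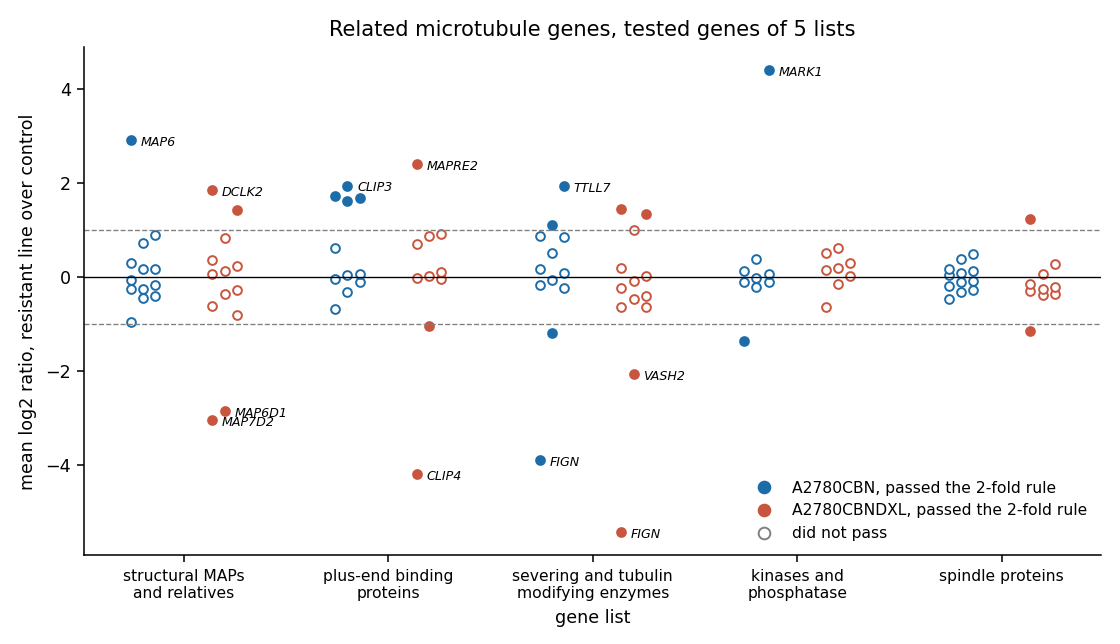
Mean log2 ratio of resistant line over control (y axis) of the tested genes of 5 lists of related microtubule genes (x axis) in A2780CBN (blue) and A2780CBNDXL (red). Filled symbols passed the 2-fold rule, dashed lines mark 2-fold, and genes with a log2 ratio of at least 1.8 in size are named. FIGN is low in both lines, and most spindle genes lie between the dashed lines.

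Since several members are known from neurons, 13 neuronal marker genes were read beside them. In A2780CBN 1 of 7 tested markers passed as higher and 3 as lower, and in A2780CBNDXL 1 of 8 passed as higher and 5 as lower, beside the shares of all genes given above (8.0% and 4.55%, and 7.7% and 9.2%). The summed signal of the 11 markers measured on all arrays was 2428 to 3516 in A2780CBN and 4000 to 4555 in its control. It was 652 to 802 in A2780CBNDXL and 3414 to 4988 in its control. A sum of this kind is weighted to the brightest probes and does not show how many markers changed. Of these markers GAP43, SNAP25, ELAVL4 and NCAM1 were not above background in any channel. The part of such a programme in the MAP ratios was not tested.

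As a check of the labelled origin, 8 epithelial and ovarian marker genes were read. Of these, 2 of 5 tested passed as higher in A2780CBN and 1 of 4 in A2780CBNDXL, and none passed as lower. For these and the next markers, the shares over all tested genes were 8.0% higher and 4.55% lower in A2780CBN. They were 7.7% higher and 9.2% lower in A2780CBNDXL. Their summed signal was 3678 to 4156 in A2780CBN and 2220 to 2340 in its control, and 3231 to 4253 in A2780CBNDXL and 2273 to 2867 in its control. WT1, MUC16 and CDH1 were not above background in any channel. Of 9 markers of stroma, endothelium and blood, 2 passed as higher and 1 as lower among 6 tested in A2780CBN, and 4 as higher and 1 as lower among 6 in A2780CBNDXL. Their summed signal was 3243 to 4028 beside 3849 to 5236 in the control, and 13655 to 19003 beside 8608 to 10747 in the control of A2780CBNDXL, and PECAM1 and PTPRC were not above background. The sums of these markers are likewise weighted to the brightest probes. The part of these markers in the MAP and stathmin ratios was not tested.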

How the data were processed

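The authors hybridized each pooled RNA sample to 4 arrays and deposited the output of Agilent Feature Extraction (10.7.1.1 on the first slide and 10.7.3.1 on the other, per the file headers). The deposited processed intensity is background-subtracted and dye-normalized within each array. Raw mean, background and background-subtracted intensities deposited beside it served for alternatives only. Forward labels set the direction, and reverse arrays were turned over as their name states, although their dye entries conflict. Ratios of forward and reverse arrays then correlated at 0.58 to 0.74 within a line. Outlier spots were dropped, spots of a probe averaged, and log2 ratios averaged within labelling direction and then over both. A probe counted as well above background when at least 0.5 of its spots were. Between 59.8 and 67.5% of spots passed in a channel. Levels across arrays used Aquantile scaling, and bounds took, on each array, the faintest signal still well above background. Each line is 1 sample, so no test across samples was run. The number of arrays limits the precision.

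All 10 members are named with every probe, and of the related lists the genes that passed the 2-fold rule. The members and lists were chosen with earlier results of these data known. Alternatives were normexp (offset 50) with loess, background-subtracted signals centred on the median, and leaving out arrays or slides. Further ones were the mean over probes, other filters and limits, and the other line's control. An ANOVA and limma were also run, and their p-values measure array error only. The ANOVA terms of line, dye and slide were chosen here, since the study's text does not name its factors. It took the channels of an array as separate values. The steps were tested on simulated arrays. Symbols and upstream sequences came from RefSeq tables for GRCh38.p14. Software was Python 3.11.15 (pandas 2.3.3, numpy 2.4.6, matplotlib 3.10.9, scipy 1.17.1) and limma 3.58.1 in R 4.3.3.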

Additional observations from a re-analysis of the deposited data

Results flagged for a closer look

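Among the members and the related genes that passed the 2-fold rule in at least one line, 3 genes were tested in both lines and had every array of one line on one side of 0 and every array of the other line on the opposite side. The mean log2 ratio of MAPT was 0.78 for A2780CBN and -2.11 for A2780CBNDXL, CLIP4 had 1.71 and -4.20, and VASH2 had 1.11 and -2.07. The difference between the lines was not tested, since each line is 1 sample. Of all genes tested in both lines, 14.2% had such opposite signs at any size. CLIP4 and VASH2 also passed the 2-fold rule in opposite directions, which 1.83% of those genes did. The 2 samples were not screened for outlying samples, because a group of 1 allows no such comparison.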

How the results depend on the processing

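STMN3, MAP1B, MAP2 and DCLK1 in A2780CBN and MAPT, MAP1B and MAP2 in A2780CBNDXL were also the members listed by the ANOVA with line, dye and slide and by limma, on array error alone. With 1 array left out, the number of members that passed was 4 to 4 in A2780CBN, 3 to 4 in A2780CBNDXL and 3 to 4 for the difference between the lines. With normexp (offset 50) and loess together, 1 member passed for the difference between the lines (MAP1B), where MAPT had -0.55 and DCLK1 1.25, and 2 related genes passed in A2780CBN in place of 11. The mean over all probes of a gene gave 5 members in A2780CBNDXL, with STMN2 and STMN3 added. STMN2 passed there only through its dim probe, which had 2.21 and could not be tested, while its brighter probe had 0.37. A signal above background in both channels left 2 members in A2780CBN (MAP1B and STMN3) and 1 in A2780CBNDXL (MAP1B). No share over all genes was computed for arrays left out, normexp with loess, the mean over probes or the filter on both channels. Counts under those settings therefore cannot be set against a change over all genes. At a limit of 1.5-fold, MAPT and MAP1A passed as well in A2780CBN, as higher, which made 6 members, and 18 and 23 related genes passed in place of 11 and 13, beside 27.1% and 33.3% of all tested genes. The control of the other line's arrays turned MAPT in A2780CBNDXL to 0.0323, added MAPT (as lower) and MAP1A (as higher) in A2780CBN, and left STMN3 in A2780CBN without a test for lack of 1 spot. In A2780CBN and A2780CBNDXL, in this order, MAP1B ranged over all settings from -1.87 to -1.43 and from -3.67 to -2.78, MAP2 from -6.17 to -1.34 and from -5.26 to -1.29, and STMN3 from 1.03 to 1.46 and from 1.85 to 2.37. The cause of these shifts was not tested. The alternatives for the related genes and for arrays with an outlier spot were added after seeing the data. No paired analysis was possible because each group is 1 sample. Probes near background, among them those of MAP2, MAPT, STMN2 and DCLK1 in the low channel, limit what can be measured.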
